A study of Rattus norvegicus with 32 samples.

Results

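Genes of endothelial cell-cell contacts, 10 of the 32623 genes in the count files, were followed through liver sinusoidal endothelial cells (LSECs) of the rat. They were Cdh5, Ctnnb1 and Jup of the adherens junction, Cldn5, Ocln and Tjp1 of the tight junction, and Jam2, Jam3, F11r and Esam of the junctional adhesion molecule (JAM) family. Genes were matched by symbol, and each symbol matched 1 row in every file. The RNA came from 32 libraries in 6 groups. In the CCl4 model, male Wistar Han rats inhaled the hepatotoxin carbon tetrachloride for 2 weeks (acute injury, n = 5), 6 weeks (fibrosis, n = 5) or 12 to 14 weeks (cirrhosis, n = 6), and 6 Wistar Han rats were healthy. The labels of the cirrhosis libraries name CCl4 but no duration, which comes from the design text. Drinking water held phenobarbital in this model, and the sources used here do not settle whether the healthy rats drank it. In the thioacetamide (TAA) experiment, 5 libraries carry the label control and 5 the label TAA control, so the labels do not say which group received the toxin. The labels name Wistar Han for these 10 libraries and the design text names Sprague-Dawley. Ages were not given, and cells of both toxin models were taken days after the last dose, by liver perfusion, digestion and an iodixanol density gradient, with no sort on a surface protein stated in the labels.

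The adherens junction of endothelium is built on VE-cadherin (Cdh5), whose extracellular part binds VE-cadherin of the neighbouring cell and whose tail binds β-catenin (Ctnnb1) or plakoglobin (Jup). Tight junctions hold claudins, with claudin-5 (Cldn5) as the endothelial one, occludin (Ocln) and the scaffold ZO-1 (Tjp1), while JAM-A (F11r), JAM-B (Jam2), JAM-C (Jam3) and ESAM are immunoglobulin-like adhesion proteins of the same contacts. LSECs are fenestrated and lack an organised basement membrane, and their contacts differ from those of the continuous endothelium of larger vessels.

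RefSeq promoter windows of the build GRCr8 matched 7 of the 10 symbols. The windows of Cldn5 and F11r are shown, Cldn5 because its level ranged from 0 to 20.8 CPM (read counts scaled to a common library total) in the CCl4 model, and F11r as the other gene whose window ends at the annotated gene start. Each is the 250 bases before the start, on the gene's own strand, at chr11:95718599-95718848 (minus strand) for Cldn5 and chr13:86405979-86406228 (plus strand) for F11r. Capitals mark the CCAAT box (CCAAT, or ATTGG on the opposite strand) and the GC box (GGGCGG, or CCGCCC), and no match overlaps another.
Cldn5: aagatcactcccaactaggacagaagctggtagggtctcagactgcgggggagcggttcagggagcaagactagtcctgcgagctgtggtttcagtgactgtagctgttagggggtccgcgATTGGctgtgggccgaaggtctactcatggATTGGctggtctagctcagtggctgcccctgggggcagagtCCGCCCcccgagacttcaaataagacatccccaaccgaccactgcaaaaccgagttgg
F11r: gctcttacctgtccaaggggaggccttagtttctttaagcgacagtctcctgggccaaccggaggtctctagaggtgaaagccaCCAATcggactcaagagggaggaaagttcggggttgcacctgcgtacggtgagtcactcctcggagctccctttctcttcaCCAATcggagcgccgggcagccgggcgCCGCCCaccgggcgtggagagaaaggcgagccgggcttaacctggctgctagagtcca
Both windows held 2 CCAAT boxes and 1 GC box. Among all 33469 windows of this length, 34% held at least 1 CCAAT box and 30.5% at least 1 GC box, so 1 match of either is not rare. The share of windows with 2 CCAAT boxes was not counted. Neither of the windows shown held the TATAAA letters, which 12.9% of windows hold. These matches describe letters in the window and were looked up after expression was known.

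Totals ranged from 25646531 to 46464289 expected counts per library. TMM factors, which scale the totals for composition, were 0.712 to 0.939 in healthy LSECs and 0.989 to 1.18 in the other CCl4 libraries. All values below are CPM with these factors, computed separately for the CCl4 model and the TAA experiment, so levels are not compared between the experiments. Gene lengths of the mapped build were not used here, so levels are not compared between genes either. The labelled cell type was checked against 8 LSEC markers (Stab1, Stab2, Lyve1, Clec4g, Fcgr2b, Mrc1, Gata4, Oit3), all detected in each group. Their summed level was 12615 to 22381 CPM in healthy, 2016 to 2434 in acute, 1393 to 2275 in fibrosis and 11768 to 14980 in cirrhosis libraries. Pan-endothelial markers (7 of 8 matched) summed to 12887 to 19790, 1877 to 2242, 1724 to 2119 and 7949 to 10071 CPM in the same order. Large-vessel endothelial markers summed to 2583 to 5607, 209 to 293, 221 to 275 and 2289 to 4965 CPM. Acute and fibrosis libraries thus stand apart from healthy and cirrhosis libraries in all 3 lists, and in bulk RNA fewer cells of a type and less RNA per cell cannot be told apart. Hepatocyte markers summed to 730 to 17646 CPM in healthy, 87.3 to 779 in acute, 1029 to 4274 in fibrosis and 1672 to 11067 in cirrhosis libraries. Stellate cell and fibroblast markers summed to 164 to 603, 7.37 to 26.8, 35.8 to 133 and 486 to 1695 CPM. The labels name no processing batch, and stage and a batch that follows it cannot be told apart.

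In acute injury and in fibrosis, plakoglobin, claudin-5, JAM-B and ESAM fell steeply, JAM-C rose, and VE-cadherin did not pass the test. In cirrhosis, claudin-5 and JAM-B were above healthy LSECs, while plakoglobin and ESAM remained below them. Median log2 fold changes in acute injury and fibrosis were -3.41 and -3.52 for LSEC and -3.00 and -3.23 for pan-endothelial markers. For large-vessel endothelial markers they were -3.24 and -2.97. The part of such a wider fall in the values of Jup, Jam2 and Esam was not tested. A gene was called when its unadjusted p was under 0.05 and its fold-change above 1.5 in limma-voom. By this rule 6 of the 10 genes differed between acute and healthy LSECs (1 higher, 5 lower), where 74.1% of all 14317 genes tested did (35.8% higher, 38.3% lower). In fibrosis 5 differed (1 higher, 4 lower), against 71.2% of all genes (35.8% higher, 35.4% lower), and in cirrhosis 5 differed (3 higher, 2 lower), against 54.5% (28.8% higher, 25.7% lower). Groups did not overlap in 5, 6 and 2 of the genes at these stages, beside 60.0%, 58.7% and 27.2% of all genes. In these fits the shares of junction genes called were below those of all genes. The non-overlap share in fibrosis and some shares in 1 direction lay somewhat above those of all genes. With 1 library left out at a time, the genes called ranged from 6 to 9, 5 to 6 and 4 to 7 of 10. In acute injury and cirrhosis a share below that of all genes may thus rest on which libraries are used. With 10 genes these counts set the junction genes apart from no other genes. Scaling by library totals alone moved the median of all genes by 0.41, 0.40 and 0.35 on the log2 scale in acute injury, fibrosis and cirrhosis. The share of called genes that were higher went from 50.3% to 60.7% in fibrosis and from 52.8% to 71.2% in cirrhosis under it. With TMM factors, the median log2 fold change of the 10 junction genes was -1.03 in acute injury, -0.34 in fibrosis and 0.42 in cirrhosis. Over all genes tested it was -0.09, -0.03 and 0.07. The comparisons with healthy LSECs share the 6 healthy libraries.

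**Figure D1:**
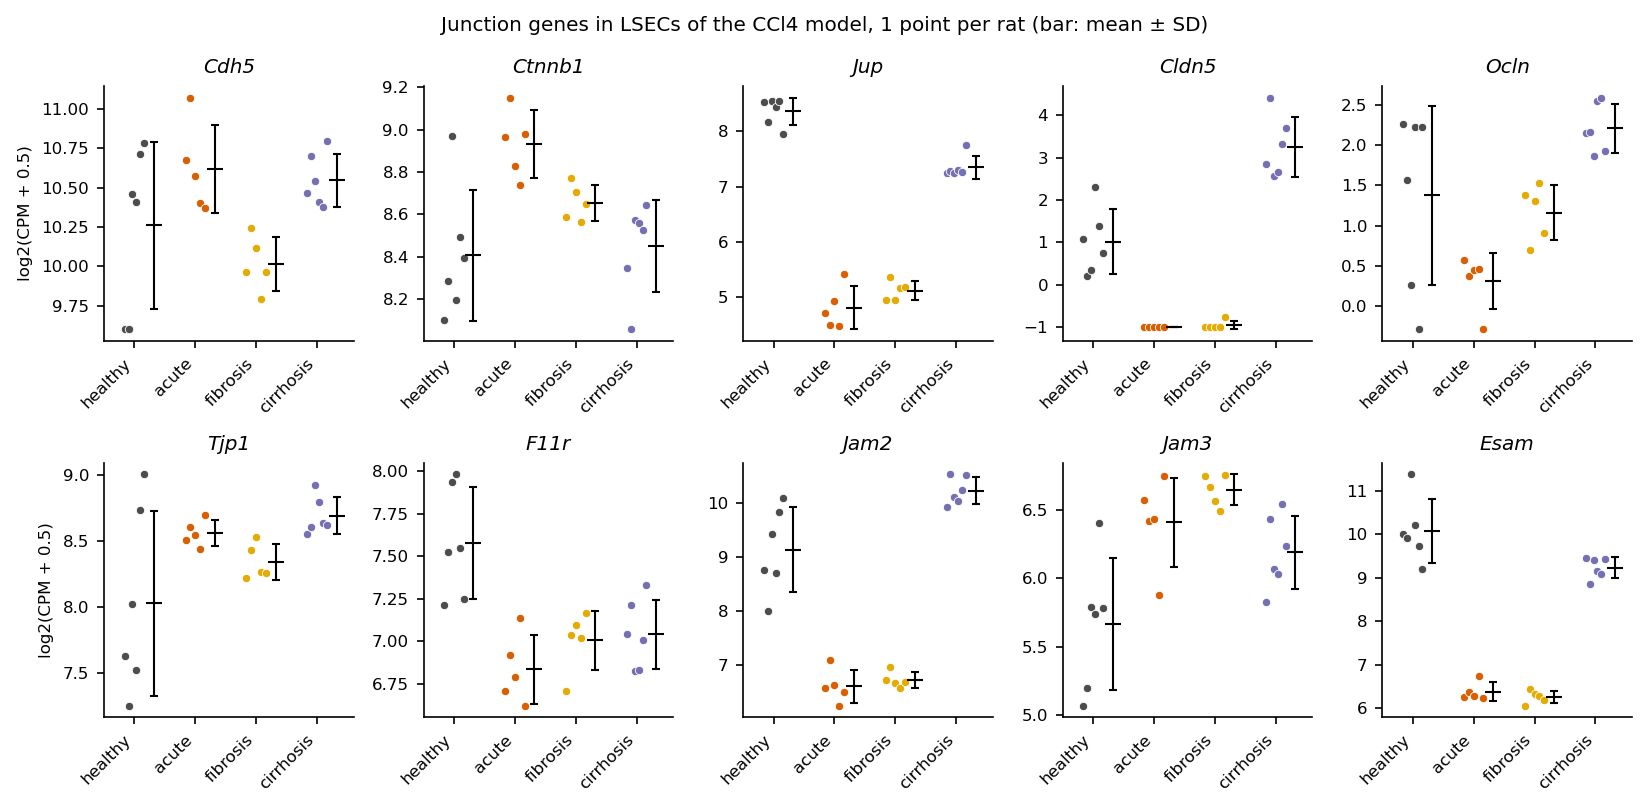
Log2(CPM + 0.5) of the 10 junction genes in each library of the CCl4 model by stage, with 1 point per library and the group mean ± SD beside the points. Jup, Cldn5, Jam2 and Esam show separate low groups in acute injury and fibrosis, while the Cdh5 points overlap the healthy range of 775 to 1762 CPM at every stage.

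**Figure D2:**
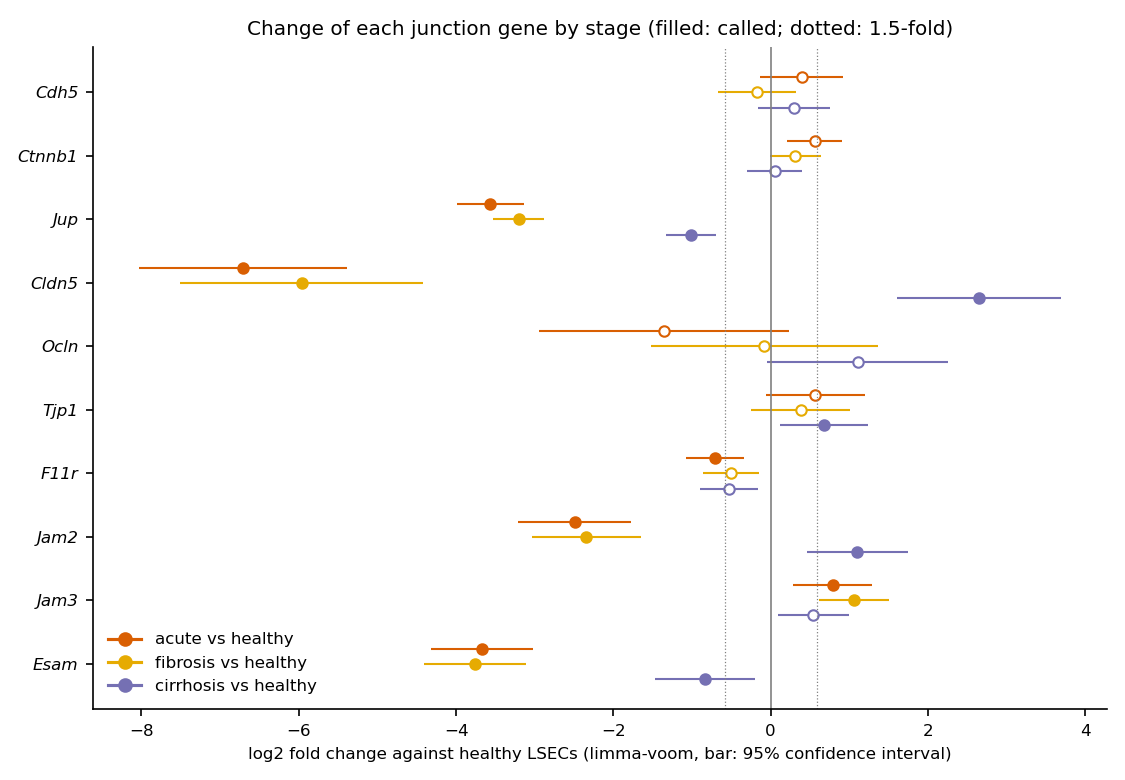
Log2 fold change of each junction gene against healthy LSECs with its 95% confidence interval from limma-voom, for acute injury, fibrosis and cirrhosis. Filled points were called, and dotted lines mark a fold-change of 1.5. Esam at -3.67 and Jup at -3.56 are low in acute injury, and Cldn5 lies at 2.65 in cirrhosis. The fitted Cldn5 values in acute injury and fibrosis depend on the prior count and are no bound.

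The adherens junction genes separated by partner. VE-cadherin, the cadherin of the complex, had a lowest, median and highest level of 775, 1382 and 1762 CPM in healthy LSECs. The acute libraries had 1632, 2154, 1522, 1354 and 1324 CPM, and the fibrosis libraries 998, 1210, 1107, 886 and 997 CPM, while the cirrhosis group had 1327, 1454 and 1775 CPM as its lowest, median and highest levels. All 3 injured groups overlapped the healthy one, whose replicates 1 and 2 were its low libraries. Log2 fold changes were 0.39 (95% interval -0.13 to 0.92) in acute injury, -0.18 (-0.68 to 0.32) in fibrosis and 0.30 (-0.16 to 0.76) in cirrhosis. None passed the test, and these intervals leave room for changes of up to 0.92 on the log2 scale. With library totals as the only scaling, Cdh5 was called in acute injury (0.80) and cirrhosis (0.64) and its sign in fibrosis turned to 0.22. Without healthy replicate 6 it was called in acute injury (0.59).

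Plakoglobin, which shares the cadherin tail with β-catenin and also serves desmosomes, had 248, 358 and 375 CPM as lowest, median and highest healthy levels. It had 25.5, 22.1, 29.8, 21.6 and 42.3 CPM in the acute libraries and 30.2, 40.3, 30.1, 35.3 and 35.9 CPM in the fibrosis libraries. In cirrhosis it ranged from 150 to 216 CPM with a median of 154, so that the injured groups all lay below the healthy one without overlap. Jup fell by 3.56 ± 0.20 (SE) on the log2 scale in acute injury (adjusted p = 1.61e-08), by 3.20 ± 0.15 in fibrosis (adjusted p = 6.42e-09) and by 1.01 ± 0.15 in cirrhosis (adjusted p = 0.000201). β-catenin, the other tail partner and a transcriptional co-activator of Wnt signalling, ranged from 274 to 501 CPM in healthy, 426 to 568 in acute, 378 to 436 in fibrosis and 266 to 400 in cirrhosis libraries. Its log2 fold change of 0.56 ± 0.16 in acute injury (adjusted p = 0.00675) stayed just under the fold threshold. It passed with DESeq2 (0.60), with DESeq2 size factors (0.62), with no low-count filter (0.67), with library totals as the only scaling (0.97), and without healthy replicate 3, 4 or 6 or acute replicate 3 or 4 (up to 0.72). In fibrosis and cirrhosis its intervals were -0.01 to 0.64 and -0.29 to 0.40, and with library totals alone it was called in fibrosis (0.71).

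Claudin-5 spanned the widest range of the tight junction genes. Its healthy levels were 0.65, 1.40 and 4.43 CPM (lowest, median, highest), and the count was 0 in all 5 acute libraries. In fibrosis it was 0 in 4 libraries and 0.0875 CPM in replicate 17, from an expected count of 2.82. In cirrhosis it ranged from 5.41 to 20.8 CPM with a median of 8.05, above every healthy library. With a floor of 3 counts over the pooled acute libraries (0.0163 CPM), the pooled healthy level of 1.73 CPM was 107-fold above that floor. This figure allows for counting error in the acute group only, and not for the spread among rats. In fibrosis 3 rounded counts gave a healthy to fibrosis ratio of 96.0, with a 95% counting interval of 32.5 to 468 that covers counting error only. The fitted test called both falls (adjusted p = 9.55e-07 and 1.10e-05), and the rise in cirrhosis was 2.65 ± 0.48 on the log2 scale (adjusted p = 0.000726). Expected counts of Cldn5 were not whole in 23 of 32 libraries, which were all the libraries with a count above 0. A gene whose reads are divided with another gene has such counts. The level of Cldn5 is therefore less certain than that of genes with whole counts. The part of this division in the counts of 0 was not tested. The large-vessel markers given above, a compartment with continuous endothelium, were low in the same acute and fibrosis libraries but did not separate cirrhosis from healthy LSECs, and 7 of 8 stellate cell and fibroblast markers rose in cirrhosis. Of 5 lymphatic endothelial markers, 3 rose and 1 fell in cirrhosis. These marker counts stand beside 28.8% of all genes called higher and 25.7% called lower in cirrhosis. Ccl21, a chemokine of lymphatic endothelium, averaged 3.84 CPM in healthy, 0.361 in acute, 0.980 in fibrosis and 1185 CPM in cirrhosis libraries, so its means were low and high at the same stages as those of Cldn5. Pdpn averaged 1.66 CPM in healthy and 20.6 CPM in cirrhosis libraries, Prox1 averaged 11.7 and 19.7 CPM, and Flt4 fell. The 5 markers summed to 1014 to 1555 CPM in healthy, 1461 to 2348 in acute, 1283 to 1696 in fibrosis and 1389 to 3113 in cirrhosis libraries, a sum led by Reln in acute injury and fibrosis. The part of these cell types in the Cldn5 values was not tested.

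Occludin, a membrane protein of tight junctions, was low throughout, with 0.322, 3.31 and 4.28 CPM (lowest, median, highest) in healthy LSECs. It had 0.980, 0.790, 0.861, 0.875 and 0.316 CPM in acute libraries, 2.09, 1.12, 1.96, 2.38 and 1.37 CPM in fibrosis libraries, and 3.15 to 5.53 CPM in cirrhosis. Healthy libraries overlapped every injured group, with replicates 3 and 5 far below the other 4. Its log2 fold change was -1.35 (95% interval -2.94 to 0.24) in acute injury, -0.08 (-1.52 to 1.36) in fibrosis and 1.10 (-0.05 to 2.26) in cirrhosis, none of which passed the test. Without healthy replicate 5 the acute difference passed at -1.87, and it also passed with edgeR's test (-1.80), with DESeq2 and in a single fit over all 22 CCl4 libraries. The cirrhosis difference passed in that single fit (1.09), with library totals (1.46) or upper-quartile factors (1.25), with no low-count filter (1.12), and without healthy replicate 1, 4 or 6 (up to 1.36). Hepatocytes and cholangiocytes also make occludin, and the summed hepatocyte markers given above varied over more than an order of magnitude among the healthy libraries. Their part in the Ocln values was not tested.

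ZO-1, the scaffold that ties tight junctions to actin, ranged from 152 to 515 CPM in healthy libraries (median 229), 347 to 415 in acute, 298 to 370 in fibrosis and 375 to 485 in cirrhosis libraries. The healthy group spread more widely than each injured group and overlapped all of them. Tjp1 rose by 0.67 ± 0.26 on the log2 scale in cirrhosis (adjusted p = 0.0396). That call was lost with edgeR, with DESeq2, and without healthy replicate 2 or 4, which were among the low healthy libraries, and its value over the libraries left out ranged from 0.52 to 0.85. In acute injury and fibrosis its log2 fold changes were 0.57 (95% interval -0.06 to 1.20) and 0.38 (-0.25 to 1.01). The acute value passed with library totals alone (0.97), with DESeq2 size factors (0.63), with no low-count filter (0.67) and without healthy replicate 5 (0.69) or 6 (0.85), and the fibrosis value passed with library totals alone (0.77). Expected counts of Tjp1 were not whole in 20 of 32 libraries.

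In the JAM family, JAM-B and ESAM fell and JAM-C rose in the earlier stages. JAM-B, a ligand of JAM-C on the neighbouring cell, had 255, 558 and 1082 CPM as lowest, median and highest healthy levels. The acute libraries had 95.3, 136, 98.1, 75.3 and 90.2 CPM and the fibrosis libraries 105, 123, 102, 95.2 and 102 CPM. Cirrhosis libraries had 972 to 1473 CPM (median 1149) and overlapped the healthy group only through its highest library. Jam2 fell by 2.49 ± 0.33 on the log2 scale in acute injury (adjusted p = 2.26e-05) and by 2.35 ± 0.32 in fibrosis (adjusted p = 3.37e-05), and it rose by 1.10 ± 0.30 in cirrhosis (adjusted p = 0.00747).

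ESAM, an adhesion molecule of endothelial cells and platelets, ranged from 586 to 2675 CPM in healthy LSECs with a median of 998. Its levels were 76.7, 82.5, 77.9, 107 and 74.7 CPM in acute libraries and 66.1, 86.9, 80.3, 76.9 and 72.8 CPM in fibrosis libraries. Every one of these 10 libraries lay far below the lowest healthy library. The falls were 3.67 ± 0.30 (adjusted p = 3.69e-07) and 3.76 ± 0.30 (adjusted p = 3.88e-07) on the log2 scale. Cirrhosis libraries had 462 to 704 CPM and overlapped the healthy group, and the fall of 0.83 ± 0.29 there (adjusted p = 0.0271) lost its call without healthy replicate 3 (log2 fold change -0.57), the library at 2675 CPM, and with library totals as the only scaling (-0.49).

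JAM-C ranged from 33.0 to 84.1 CPM in healthy, 58.4 to 107 in acute, 89.8 to 108 in fibrosis and 56.4 to 92.9 CPM in cirrhosis libraries. Only the fibrosis group had no overlap with the healthy one. Jam3 rose by 0.79 ± 0.23 in acute injury (adjusted p = 0.00800) and by 1.06 ± 0.20 in fibrosis (adjusted p = 0.000469), both on the log2 scale, and its cirrhosis value of 0.54 (95% interval 0.09 to 0.99) stayed under the fold threshold, which it passed with library totals or upper-quartile factors (up to 0.89) and without cirrhosis replicate 1 or healthy replicate 5 (up to 0.68). JAM-A, the family member shared with epithelia and platelets, ranged from 148 to 252 CPM in healthy, 98.0 to 140 in acute, 104 to 143 in fibrosis and 113 to 160 in cirrhosis libraries. Acute and fibrosis libraries lay below all healthy ones. F11r fell by 0.71 ± 0.17 in acute injury (adjusted p = 0.00196), a call that was lost without healthy replicate 4 (log2 fold change -0.56) and with library totals as the only scaling (-0.30). Its log2 fold changes of -0.50 ± 0.16 in fibrosis and -0.53 ± 0.17 in cirrhosis stayed under the fold threshold, the first passing without healthy replicate 6 (-0.62) and the second without cirrhosis replicate 6 or healthy replicate 1 or 6 (down to -0.61). Expected counts of F11r were not whole in any of the 32 libraries.

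From acute injury to fibrosis 1 junction gene was called, and from fibrosis to cirrhosis 5 rose. Fibrosis and acute libraries differed in 1 of the 9 junction genes tested, against 15.7% of all 13931 genes tested (14.3% higher, 1.39% lower). Without acute replicate 8 the count was 2. The gene was Ocln, which rose by 1.31 ± 0.33 on the log2 scale (adjusted p = 0.0215) without overlap of the groups, as 17.2% of all genes, and whose call was lost in a single fit over all 22 CCl4 libraries. Hepatocyte markers also rose between these stages, 8 of 8 by the same rule, and cholangiocyte markers rose in 4 of the 4 tested. Their part in the Ocln value was not tested. VE-cadherin did not overlap between these stages either, but its log2 fold change of -0.52 ± 0.13 (adjusted p = 0.0204) stayed under the fold threshold. It passed without acute replicate 8 (-0.59), in the single fit over all CCl4 libraries and with library totals alone. Log2 fold changes of the other genes were 0.42 for Jup, 0.32 for Jam3, 0.25 for F11r, 0.20 for Jam2, -0.04 for Esam, -0.14 for Tjp1 and -0.20 for Ctnnb1, all under the fold threshold. Cldn5 was too low to be tested there.

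Between fibrosis and cirrhosis 5 of the 10 genes were called, all higher in cirrhosis, against 64.2% of all 15186 genes tested, of which 34.5% were called higher and 29.7% lower. Jam2 rose by 3.50 ± 0.12 (adjusted p = 2.63e-10), Esam by 2.98 ± 0.12 (adjusted p = 6.37e-10), Jup by 2.25 ± 0.11 (adjusted p = 4.86e-09) and Ocln by 1.26 ± 0.24 (adjusted p = 0.000467) on the log2 scale. Cldn5 was called as well (adjusted p = 1.56e-05), with a ratio of pooled levels of 578 and a counting interval of 197 to 2803. Along with those 5, Cdh5 and Tjp1 did not overlap between the stages, 7 of 10 beside 63.3% of all genes, at log2 fold changes of 0.53 ± 0.10 and 0.35 ± 0.09, under the fold threshold. Cdh5 passed with upper-quartile factors (0.62) and without cirrhosis replicate 4 (0.59). The interval of F11r, -0.21 to 0.28, was the one closest to 0, Jam3 had -0.46 ± 0.12, and Ctnnb1 had -0.21 (95% interval -0.43 to 0.02). Markers of many cell types rose between these stages. LSEC, large-vessel endothelial, hepatocyte, and stellate cell and fibroblast markers each rose in 7 of 8, pan-endothelial markers in 7 of 7 tested, macrophage markers in 8 of 8, and lymphatic markers in 4 of 5 with the other lower. Cholangiocyte markers rose in 4 of 8 and fell in 2, mesothelial markers rose in 4 of 5, and lymphocyte and neutrophil markers rose in 5 of 7 and 3 of 3 tested. Median log2 fold changes were 3.13 for LSEC, 3.30 for large-vessel and 4.14 for macrophage markers. Macrophage markers summed to 30.2 to 189 CPM in fibrosis and 681 to 2453 CPM in cirrhosis libraries. Their part in the result was not tested.

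Ratios of 2 junction genes within a library do not depend on how libraries are scaled, so 4 pairs were compared in 16 exact two-sided permutation tests over libraries. The pairs were Cldn5/Cdh5, Jup/Ctnnb1, Jam2/Jam3 and F11r/Esam, on the log2 scale of expected counts with a pseudocount of 0.5. The log2 ratio of Jup to Ctnnb1 averaged -0.04 ± 0.35 (SD, n = 6) in healthy, -4.16 ± 0.42 (n = 5) in acute, -3.56 ± 0.16 (n = 5) in fibrosis and -1.11 ± 0.23 (n = 6) in cirrhosis libraries. The groups of all 3 stages lay below the healthy group, each at the smallest p the exact permutation test allows there (p = 0.00216, adjusted p = 0.00346 over 16 tests). The log2 ratio of Jam2 to Jam3 averaged 3.48 ± 0.54 in healthy, 0.20 ± 0.35 in acute, 0.07 ± 0.14 in fibrosis and 4.04 ± 0.19 in cirrhosis libraries. It was lower without overlap in acute injury and fibrosis (exact permutation adjusted p = 0.00346 for each), and the cirrhosis difference of 0.56 did not pass (adjusted p = 0.0548). The log2 ratio of F11r to Esam was higher by 2.96 in acute injury and by 3.25 in fibrosis (exact permutation adjusted p = 0.00346 for each) and differed by 0.31 in cirrhosis (adjusted p = 0.312). The log2 ratio of Cldn5 to Cdh5 averaged -9.71 ± 0.98 in healthy and -7.38 ± 0.65 in cirrhosis libraries, a difference of 2.33 (exact permutation adjusted p = 0.00346). It lay lower in acute injury and fibrosis too, where its size rests on the pseudocount because Cldn5 was at 0.

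**Figure D3:**
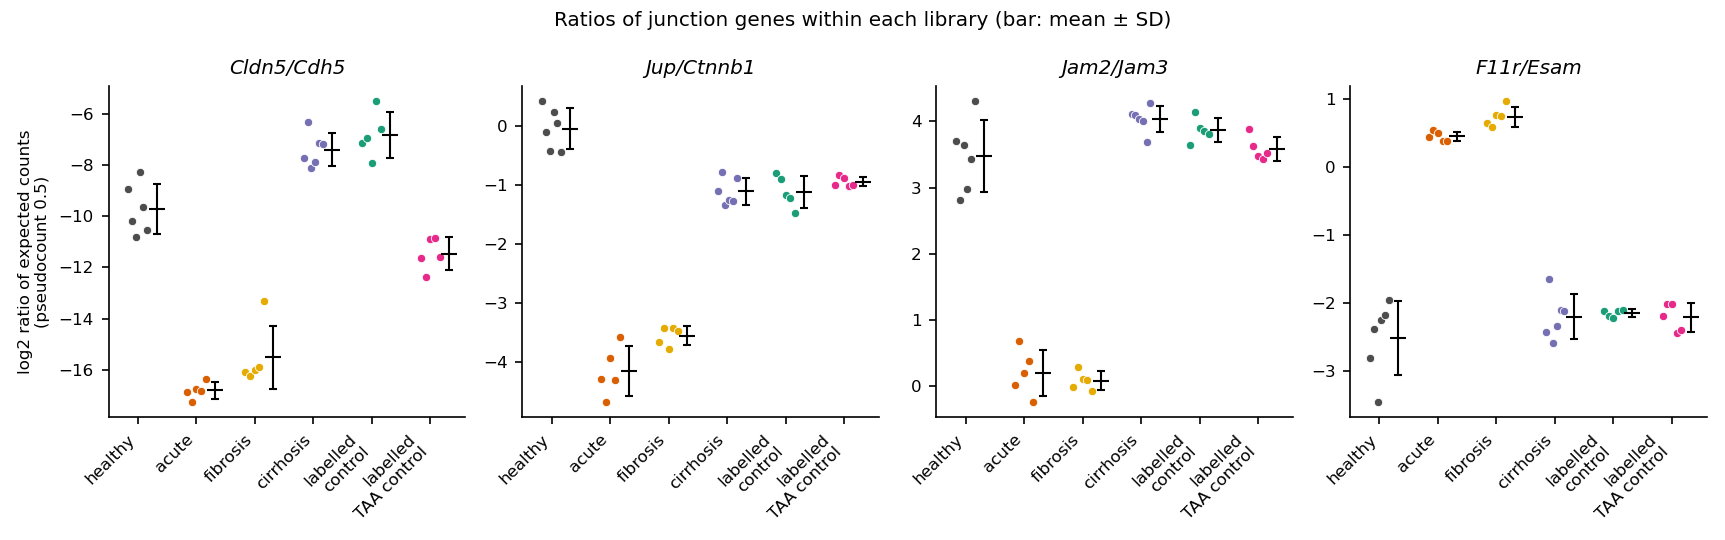
Log2 ratio of expected counts of 2 junction genes within each library (pseudocount 0.5), with 1 point per library and the group mean ± SD, for the 4 CCl4 groups and the 2 groups of the TAA experiment. Jup/Ctnnb1 falls from -0.04 in healthy to -4.16 in acute LSECs, and Cldn5/Cdh5 separates the TAA groups at -6.81 and -11.5.

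Among the other genes of endothelial junctions, most gap junction genes fell in the earlier stages and actin and signalling regulators moved in both directions. A list of 58 further genes matched 57 symbols, with Pecam1 not analysed here, and 54 or 55 were tested in each comparison. In acute injury 40 of 55 were called (16 higher, 24 lower; median log2 fold change -0.54), in fibrosis 34 (16 higher, 18 lower; -0.05) and in cirrhosis 27 (18 higher, 9 lower; -0.04). Those shares stand beside 74.1%, 71.2% and 54.5% of all genes. The counts of the sublists below stand beside the same shares, of which 35.8%, 35.8% and 28.8% were higher and 38.3%, 35.4% and 25.7% lower. Of the 7 gap junction genes, 5 fell and 1 rose in acute injury, 5 fell and 2 rose in fibrosis, and 1 fell and 2 rose in cirrhosis. Gja4, a connexin of arterial endothelium, fell by 6.59 ± 0.46 in acute injury and by 4.91 ± 0.37 in fibrosis on the log2 scale. Gjb1, a connexin of hepatocytes, fell by 4.80 ± 1.25 in fibrosis, where 5 of 8 hepatocyte markers fell too, and their part in its value was not tested. Gja1, the connexin of many endothelial and mesenchymal cells, rose by 2.48 ± 0.28 in cirrhosis. There 7 of 8 stellate cell and fibroblast markers rose too (median log2 fold change 2.28), and their part in the Gja1 value was not tested.

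Of the 12 genes tested in the adherens sublist, 5 rose and 4 fell in acute injury. These 9 make a share close to the 74.1% of all genes called. The sublist also held adhesion proteins outside the cadherin and nectin complexes, such as Icam2. N-cadherin (Cdh2), which links endothelial cells to pericytes, rose by 2.40 ± 0.35 in acute injury, 3.10 ± 0.34 in fibrosis and 2.10 ± 0.33 in cirrhosis on the log2 scale, with no overlap with healthy libraries at any stage. The part of stellate cells and fibroblasts in the Cdh2 values was not tested. Icam2, an adhesion protein of endothelial contacts, fell by 5.76 ± 0.24, 5.80 ± 0.24 and 1.43 ± 0.20 at the same stages. Nectin2, a nectin that recruits afadin, fell by 3.35 ± 0.27 in fibrosis and by 1.55 ± 0.25 in cirrhosis. It was low in acute injury as well, averaging 35.9 CPM against 401 CPM in healthy libraries. Cdh1 (E-cadherin, also on the list of cholangiocyte markers) fell by 3.45 ± 0.87 in acute injury. Cholangiocyte markers summed to 18.3 to 276 CPM in healthy and 8.42 to 71.5 CPM in acute libraries, and their part in the Cdh1 value was not tested.

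Of the 17 further tight junction genes tested, 10 fell and 2 rose in acute injury, 4 fell and 3 rose in fibrosis, and 2 fell and 4 rose in cirrhosis. Called genes of both directions were thus 12, 7 and 6 of 17, beside 74.1%, 71.2% and 54.5% of all genes. Many of these genes, such as several of the claudins other than Cldn5, are mainly epithelial. Of the 19 regulators, 8 rose and 5 fell in acute injury, 13 in all beside the same 74.1%. Krit1, a cerebral cavernous malformation protein that stabilises endothelial contacts, rose by 3.22 ± 0.41, 3.08 ± 0.41 and 1.70 ± 0.41 on the log2 scale in acute injury, fibrosis and cirrhosis. Sox18, a transcription factor of endothelium, fell by 3.64 ± 0.38 in acute injury and by 1.18 ± 0.27 in cirrhosis. Rasip1, a Rap1 effector of endothelial junctions, fell by 1.42 ± 0.21 in cirrhosis. Adjusted p was at most 0.00408 for each of these further genes at the stages given. A stage not given for a gene fell outside the rule for naming genes and is no statement that the gene was unchanged there.

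**Figure D4:**
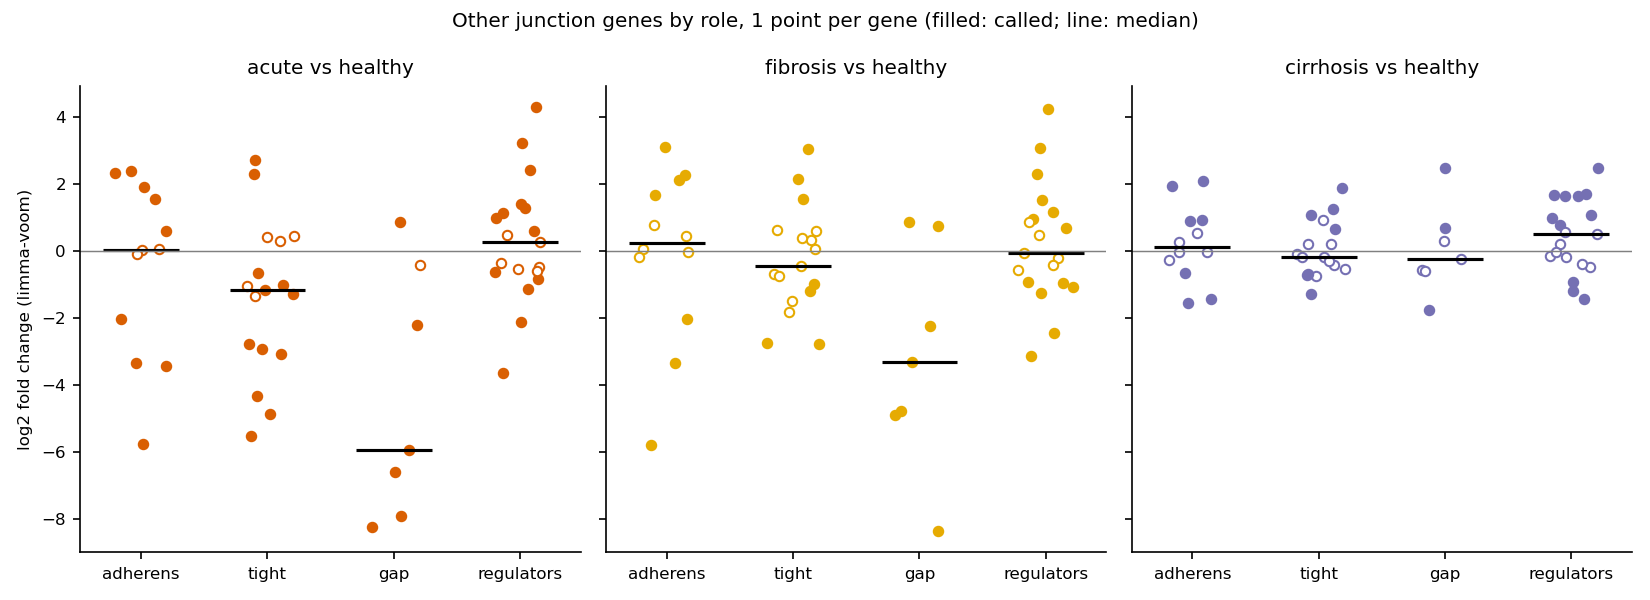
Log2 fold change against healthy LSECs (limma-voom) of the further junction genes, grouped as adherens, tight, gap and regulator genes, with 1 point per gene, filled where called, and a line at the group median. Gap junction genes have medians of -5.94 in acute injury, -3.33 in fibrosis and -0.24 in cirrhosis.

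Genes with the closest profile to Cdh5 and to Cldn5 were sought over the 22 CCl4 libraries, by the root mean square difference of centred log2 CPM. The 4775 candidates were uniquely named genes with a mean log2 CPM of at least 5, a level that Cldn5 itself did not reach. Ptpra (0.208), Tgfbrap1 (0.218) and Ccny (0.231) were closest to Cdh5. Ldb2 (0.691), Emcn (0.691) and Jam2 (0.722) were closest to Cldn5, at distances about as large as the spread of Cldn5 among healthy libraries (SD 0.77). The pseudocount added to CPM before the log put Cldn5 at -1 in acute libraries, against a healthy mean of 1.01. The size of its fall in these distances therefore rests on the pseudocount, and so may the choice of its closest genes. Whether other pseudocounts give the same closest genes was not tested. Emcn averaged 126 CPM in healthy, 22.5 in acute, 24.7 in fibrosis and 288 in cirrhosis libraries, and Ldb2 averaged 66.3, 10.2, 11.9 and 118 CPM. Like Cldn5, both had means that were low in acute injury and fibrosis and above healthy LSECs in cirrhosis, over libraries that share their stage. Both were chosen for their closeness to Cldn5 over these same libraries, so the shared pattern is no separate result.

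In the TAA experiment claudin-5 was again the gene with the widest difference. It had 16.1, 16.7, 7.87, 43.7 and 21.9 CPM in the libraries labelled control and 0.509, 0.300, 0.823, 0.790 and 0.438 CPM in those labelled TAA control. Jam2 had 1468, 1561, 1462, 1413 and 1446 CPM against 941, 994, 840, 918 and 933 CPM. Neither gene overlapped between the groups. Cldn5 was lower by 5.06 ± 0.90 (adjusted p = 0.00102) and Jam2 by 0.67 ± 0.07 (adjusted p = 4.10e-05) on the log2 scale in the group labelled TAA control. Those were the 2 of 10 genes called, against 29.4% of all 14376 genes tested (13.5% higher, 15.9% lower), and 4 were called without replicate 1 of the group labelled control.

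Another 5 genes lay without overlap below the libraries labelled control, at differences under the fold threshold. Cdh5 ranged from 1442 to 1692 CPM against 1922 to 2256 CPM (log2 fold change -0.38 ± 0.08), and Ctnnb1 from 240 to 310 CPM against 316 to 426 CPM (-0.52 ± 0.10). Jam3, F11r and Esam had log2 fold changes of -0.39, -0.50 and -0.43. That makes 7 of 10 genes without overlap, beside 35.4% of all genes tested. Jup and Ocln overlapped, at log2 fold changes of -0.36 (95% interval -0.55 to -0.16) and -0.49 (-1.01 to 0.03). Tjp1 was the 1 gene with a positive value, at 0.35 (0.14 to 0.56).

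The log2 ratio of Cldn5 to Cdh5 was lower by 4.65 in the group labelled TAA control, at the smallest p its exact permutation test allows (p = 0.00794, adjusted p = 0.0115). For Jup/Ctnnb1, Jam2/Jam3 and F11r/Esam the differences were 0.17, -0.28 and -0.07 and did not pass (exact permutation adjusted p = 0.245, 0.0586 and 0.508). In the further list 24 of 54 genes were called, 3 higher and 21 lower, beside 29.4% of all genes (13.5% higher, 15.9% lower). Gja1 was lower by 3.68 ± 0.20, Cdh2 by 3.16 ± 0.25, and Panx1 (a channel protein) by 1.45 ± 0.12 on the log2 scale in the group labelled TAA control, and Cgnl1 (paracingulin, a junction scaffold) was 2.82-fold lower. Sox17, an arterial transcription factor, was higher by 0.92 ± 0.09 and Pard3, a polarity scaffold, by 0.71 ± 0.19.

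Markers of other cell types moved with these differences. The counts of markers called below stand beside 13.5% of all genes called higher and 15.9% called lower. Stellate cell and fibroblast markers summed to 1685 to 4589 CPM in the libraries labelled control and 205 to 305 CPM in those labelled TAA control, with 6 of 8 lower. Large-vessel endothelial markers summed to 2583 to 3776 against 1586 to 1723 CPM, with 3 of 8 higher and 4 lower. That sum turned on Vwf, which averaged 1832 against 413 CPM, while Sox17 (122 against 232 CPM) and Efnb2 (306 against 517 CPM) were higher in the group labelled TAA control. Lymphatic endothelial markers summed to 1608 to 3766 against 990 to 1365 CPM, with 4 of 5 lower, and Ccl21 averaged 1079 against 3.50 CPM. LSEC markers summed to 17593 to 21464 against 20244 to 26528 CPM. Their part in the results was not tested. The closest 2 libraries of one group were those labelled TAA control 14 and 15 (chi-square per degree of freedom 3.05, and 25.2 for the next pair). They differed by more than sampling noise and were kept as 2 libraries. That difference does not show that they came from 2 rats, because 2 preparations from the same rat could differ in this way too. Whether they came from the same rat was not tested. The standard errors and exact permutation tests of the TAA experiment given above count them as independent libraries.

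**Figure D5:**
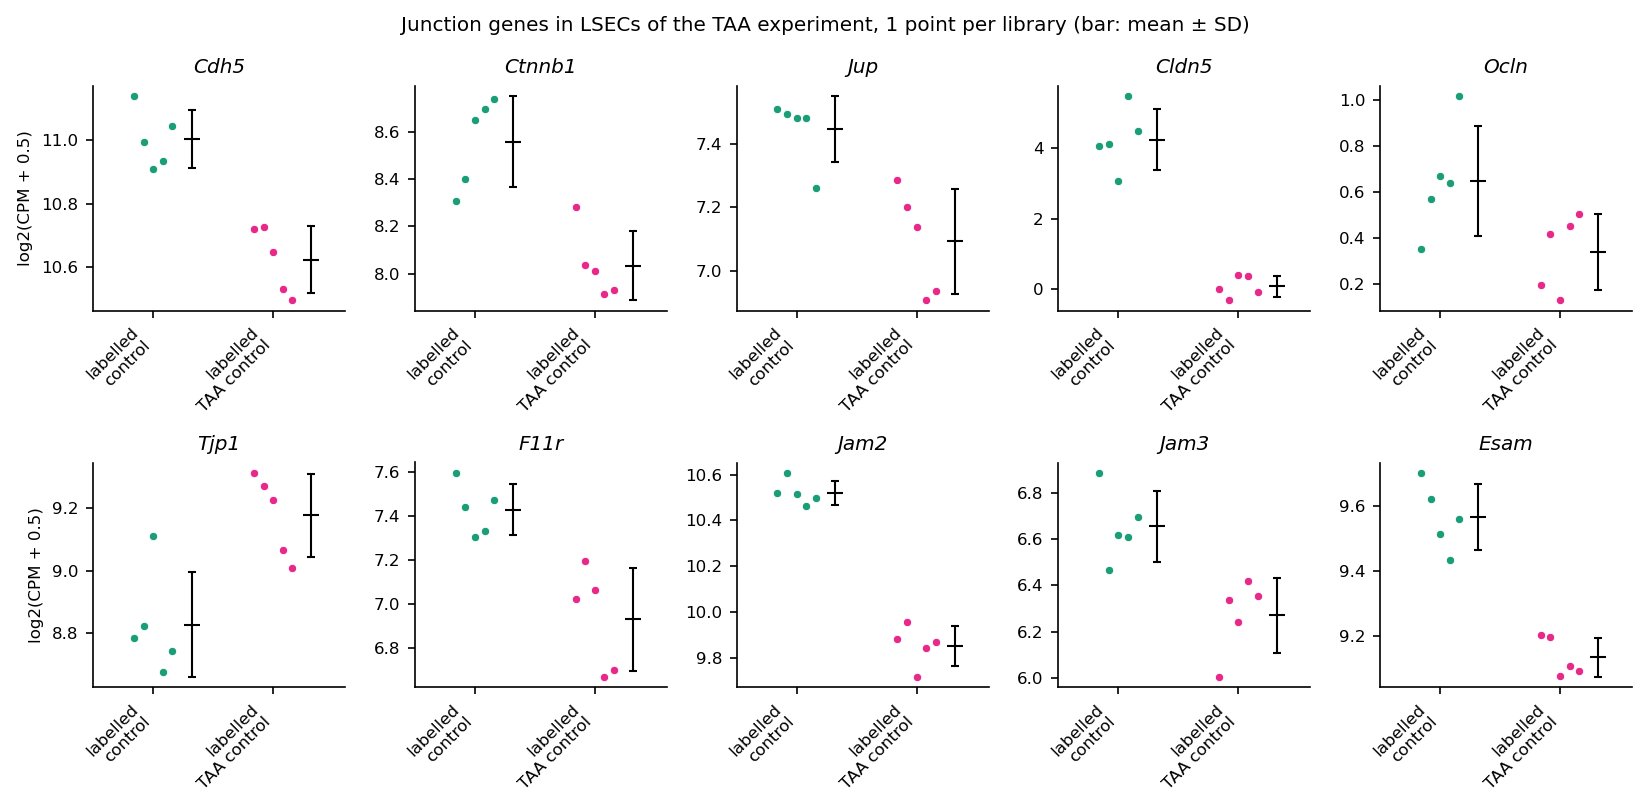
Log2(CPM + 0.5) of the 10 junction genes in the 10 libraries of the TAA experiment by label, with 1 point per library and the group mean ± SD. Cldn5 lies at 7.87 to 43.7 CPM in the libraries labelled control and at 0.300 to 0.823 CPM in those labelled TAA control, and Tjp1 is the panel with the higher mean on the right.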

How the data were processed

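RNA of LSECs was sequenced in 32 libraries. The authors trimmed the reads, aligned them with STAR (build Rnor_6.0) and estimated gene counts with RSEM, and the deposited values are expected counts per library, neither normalized nor pooled. RSEM divides reads that fit several genes. Expected counts were rounded and analysed in R 4.3.3 with limma 3.58.1 and edgeR 4.0.16. Each limma-voom fit (TMM factors, filterByExpr at a minimum count of 10) used the 2 groups compared alone, and adjusted p-values are Benjamini-Hochberg values over all genes tested. Genes were called at an unadjusted p under 0.05 and a fold-change above 1.5, the rule in the study's methods. CPM used TMM factors within each experiment, with a pseudocount of 0.5 for log2 values. Groups came from the labels. Replicate numbers shared by groups come from different rats and did not pair the libraries. Alternatives were edgeR's quasi-likelihood test, DESeq2 1.42.0, adjusted p-values, 1 fit over the CCl4 groups, other scalings and filters, no fold threshold, a replicate block and each library left out. All 10 junction genes are named in every comparison. Of the further junction genes, up to 4 per direction with a mean log2 CPM of at least 3 are named; 2 regulators among them are not reported here. The genes, lists and pairs were chosen with earlier results of these data known. Figures were drawn with matplotlib 3.10.9. The limma-voom, edgeR and DESeq2 fits of acute against healthy LSECs were tried on simulated counts and judged by adjusted p. The simulated counts held far fewer changed genes than were called here. The calling rule and the permutation tests were not tried on simulated data.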

Additional observations from a re-analysis of the deposited data

Results flagged for a closer look

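In 7 of 71 groups of libraries, counting each gene, the total and the TMM factor, 1 library lay far from the others of its group, where chance gives 3.55. Ocln was at 0.316 CPM in acute replicate 8, against 0.790 to 0.980 CPM in the other acute libraries. Esam was at 107 CPM in acute replicate 4, against 74.7 to 82.5 CPM, and the same library had the highest acute total, 36916992 counts. Cldn5 was at 0.0875 CPM in fibrosis replicate 17 and at 0 in the other fibrosis libraries, where any count would have been flagged. Jup was at 216 CPM in cirrhosis replicate 6, against 150 to 158 CPM. In replicate 5 of the libraries labelled control, Jup was at 153 CPM, against 178 to 182 CPM, and the total was 32631606 counts, the highest of its group.

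Differences between stages were tested directly by comparing the injured groups with each other. Fibrosis differed from acute injury in Ocln, with a log2 fold change of 1.31. Cirrhosis differed from fibrosis in Jup (log2 fold change 2.25), Cldn5 (fitted log2 fold change 8.68, which depends on the prior count), Ocln (1.26), Jam2 (3.50) and Esam (2.98).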

How the results depend on the processing

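The genes with the large differences (Jup, Cldn5, Jam2 and Esam in acute injury and fibrosis, and Jup, Cldn5 and Jam2 in cirrhosis) kept their direction and their call under every alternative run. With library totals as the only scaling, Cdh5 and Ocln in fibrosis against healthy turned to 0.22 and 0.32, F11r in cirrhosis against fibrosis turned to -0.073, and 2 junction genes were called between fibrosis and acute injury. Without the fold threshold, 6 junction genes were called between fibrosis and acute injury, 8 between cirrhosis and fibrosis and 9 in the TAA experiment, where 37 of the further genes were then called. Counting the libraries labelled TAA control 14 and 15 as 1 library, chosen after seeing the data, moved neither count of the TAA experiment beyond 1.5 times. Upper-quartile factors moved the median of all genes by 0.14 in cirrhosis against healthy, and library totals moved it by -0.11 in cirrhosis against fibrosis. The cause of these shifts was not tested.

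With the replicate number as a block over the numbers acute and healthy libraries share, the exact permutation test has 4 pairs and cannot go below p = 0.125, and the log2 ratios were -7.40 for Cldn5/Cdh5, -4.34 for Jup/Ctnnb1, -2.98 for Jam2/Jam3 and 3.19 for F11r/Esam. In cirrhosis the block gave 2.33 for Cldn5/Cdh5 and -1.07 for Jup/Ctnnb1 (exact permutation adjusted p = 0.125 for both). Same-numbered libraries had correlations of deviations of 0.03 to 0.20 in the acute comparison and -0.24 to 0.29 in the cirrhosis comparison, with 2 of 4 and 0 of 6 numbers closest to their own, so the numbers did not pair the libraries. Under the block 9 junction genes were called in acute injury (6 without it over all libraries, with Cdh5, Ocln and Tjp1 added; the cause was not tested) and 5 in cirrhosis.

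With each library left out in turn, the log2 fold change ranged from -0.60 to 0.15 for Ocln in fibrosis against healthy, from -0.0076 to 0.17 for Ctnnb1 in cirrhosis against healthy, from -0.090 to 0.048 for Esam in fibrosis against acute injury and from -0.045 to 0.11 for F11r in cirrhosis against fibrosis. Against healthy, junction genes called numbered 6 to 9 in acute injury, 5 to 6 in fibrosis and 4 to 7 in cirrhosis. They numbered 1 to 2 in fibrosis against acute injury, 5 to 6 in cirrhosis against fibrosis and 2 to 4 in the TAA experiment. The log2 ratio of Jam2 to Jam3 ranged from 0.42 to 0.72 in cirrhosis, where it passed without cirrhosis replicate 5 or healthy replicate 6. In the TAA experiment it ranged from -0.36 to -0.21 and passed without replicate 1 labelled control or replicate 10 labelled TAA control.

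Totals above 25646531 counts left Cldn5 and Ocln as the 2 genes limited by depth, and 3 counts over the acute group stand for 0.0163 CPM.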
